A study of Homo sapiens with 8 samples.

Results

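Cells of the K562 line given a plant extract were compared with cells without it for 5 genes whose products control actin filaments: TMSB4X, GMFG, WAS, ESPN and MYLK. K562 is an established human line from chronic myeloid leukemia. The extract came from the stem of Caulis Polygoni Multiflori, abbreviated CPM in the labels, and was given at 80 µg/mL for 3 days to the cells behind 4 libraries, extract 1 to 4. The cells behind the other 4 libraries, control 2 to 5, had no extract, and their time in culture was not given in the labels. All libraries were RNA sequencing of total RNA of the same line, and the labels do not say whether separate cultures lay behind the libraries within a group. The 5 genes are 5 of the 1950 in the deposited table, were found there by symbol, and were chosen with their values in this same contrast known. The table itself was selected by the authors on that contrast, since its largest p-value is 0.0499 and its smallest log2 fold change, in size, is 0.5851 in the authors' deposited table. The levels of the 5 genes are therefore given as a description, without a test.

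Actin filaments give blood cells their shape and let them move, engulf and, in the megakaryocyte, extend the projections that become platelets. Monomers are held in reserve by small binding proteins, are added to filaments by nucleators, and are turned into networks or bundles by branching and crosslinking proteins, on which myosin II can pull. TMSB4X codes for thymosin beta 4, which holds actin monomers, and WAS for the nucleation promoting factor of blood cells that is lost in Wiskott-Aldrich syndrome, a disease with small platelets. GMFG codes for a relative of cofilin that removes branches made by the ARP2/3 complex and is abundant in white blood cells. ESPN codes for espin, which bundles filaments in the stereocilia of the inner ear and in brush borders, and MYLK for the kinase that phosphorylates the regulatory light chain of myosin II. MYLK is also known for an inner start that gives telokin, a short product without the kinase, in smooth muscle. ESPN and MYLK are not known mainly from blood, so the 5 genes are called actin regulators here.

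The start regions of TMSB4X and GMFG are shown because both genes were lower with the extract. That of MYLK is shown because it lies inside the gene and because the measures of MYLK described below disagreed. Each sequence is from RefSeq (GRCh38.p14), runs 5′ to 3′ on the strand of the gene, and covers 250 bases before to 50 after a start site. TMSB4X is at chrX:12974860-12975159 (plus strand), GMFG at chr19:39335994-39336293 (minus strand) and MYLK at chr3:123620499-123620798 (minus strand). Capitals mark matches, on either strand, to TATAAA as the TATA box, to CCAAT as the CCAAT box, to GGGCGG as the GC box, or to the CArG box, the site of serum response factor.
TMSB4X: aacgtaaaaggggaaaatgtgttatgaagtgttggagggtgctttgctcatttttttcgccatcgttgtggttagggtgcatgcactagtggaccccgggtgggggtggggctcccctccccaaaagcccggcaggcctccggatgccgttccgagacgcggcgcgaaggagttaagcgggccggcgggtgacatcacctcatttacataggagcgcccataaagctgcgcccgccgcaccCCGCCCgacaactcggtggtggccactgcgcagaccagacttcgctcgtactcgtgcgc
GMFG: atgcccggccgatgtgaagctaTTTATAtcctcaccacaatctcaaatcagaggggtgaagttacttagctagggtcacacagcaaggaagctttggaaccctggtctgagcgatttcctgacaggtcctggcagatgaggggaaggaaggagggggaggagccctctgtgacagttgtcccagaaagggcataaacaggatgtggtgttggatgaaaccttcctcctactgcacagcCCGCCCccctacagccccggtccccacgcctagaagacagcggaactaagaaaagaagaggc
MYLK: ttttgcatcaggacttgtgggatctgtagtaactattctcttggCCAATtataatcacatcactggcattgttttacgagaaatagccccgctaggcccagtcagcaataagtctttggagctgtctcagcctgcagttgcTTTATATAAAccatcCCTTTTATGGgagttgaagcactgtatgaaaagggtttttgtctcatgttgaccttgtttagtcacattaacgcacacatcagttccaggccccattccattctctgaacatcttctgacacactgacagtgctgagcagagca

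Of the 5 genes, 4 had a start region in the RefSeq table. TMSB4X and GMFG each held 1 GC box, which 45.0% of the 35116 start regions in the table hold. GMFG also held 1 match to the TATA box, with its first base at −228 from the start site. Such a match at any position was found in 11.5% of start regions. MYLK held 2 overlapping matches to the TATA box, 1 CCAAT box (34.6% of start regions) and 1 CArG box (1.29%). The start shown for MYLK lies 263783 bases inside the gene, and 2 of the 21 transcripts annotated for MYLK in GENCODE 29 begin within 1000 bases of it, with lengths of 678 and 1447 bases. Matches to CCGGAA, the core of sites for ETS factors, and to AGATAA, a site for GATA factors, were in none of these 3 sequences (0 matches each), while 17.2% and 10.3% of start regions hold them. A match is a stretch of letters and is not evidence of binding.

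The deposited values have 2 decimals and are not counts, and no source used here gives their unit. For listed genes with 1 annotated transcript, a low value multiplied by the transcript length less 255 bases lay near a whole multiple of 1 step per library. The step, the worth of 1 fragment, was between 52.8 in control 4 and 63.5 in control 3, and between 57.8 and 62.0 in the extract libraries. It was set on one set of genes, and in the remaining genes 60.7% of 552 products lay within 0.1 of a whole multiple, against 20.0% if they were spread evenly. The values thus scale per length, and levels of different genes are compared below only as values per length. The values of all listed genes summed to between 13114 and 13433 in extract libraries and between 13629 and 14134 in control libraries. The median of the 750 genes tested with limma differed by −0.27 on the log2 scale, extract minus control. All of these genes had been selected on this contrast. Their median therefore includes the balance of higher and lower genes and is not a neutral measure of library scale. In these mixed RNA samples, fewer cells with a transcript and less of it per cell cannot be told apart.

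TMSB4X, the gene for thymosin beta 4, was the most abundant of the 5 and had the second highest mean value of the table, with rank 2 of 1950. Its expression value was 595.52, 598.94, 592.21 and 584.62 in extract 1 to 4, against 1072.78, 1140.62, 1142.55 and 1133.12 in control 2 to 5. All extract libraries lay far below all control libraries, with control 2 the lowest of its group. The means were 593 ± 6.12 with the extract and 1122 ± 33.2 without it (SD, n = 4 each), which is 1.89-fold lower. On the log2(value + 1) scale the difference was −0.92 ± 0.02 (SE). It was −0.65 once the median of the tested genes, all selected on this contrast, was set equal in all libraries (median centring). The gene lies on chromosome X at 12975108 to 12977227 (GRCh38, plus strand) and has 4 annotated transcripts of 495 to 1702 bases. GENCODE 29 names 6 pseudogenes of TMSB4X, none of them (0) in the table, and reads shared with them could have been split in the counting.

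GMFG, the debranching factor, was lower with the extract, and its log2 difference was the largest in size of the 5 without further scaling, while after median centring or quantile normalization that of ESPN was larger. Its expression value was 17.27, 19.70, 19.21 and 15.34 in extract 1 to 4, against 43.29, 52.58, 45.50 and 52.15 in control 2 to 5. The highest extract library was below the lowest control library. The means were 17.9 ± 1.99 with the extract and 48.4 ± 4.69 without it (SD, n = 4 each), or 2.71-fold lower. The log2(value + 1) difference was −1.39 ± 0.10 (SE) and −1.12 after median centring. GMFG is on chromosome 19 at 39328353 to 39342372 (minus strand), with 12 annotated transcripts of 397 to 1028 bases. If every fragment came from the longest transcript, these values stood for 191 to 252 fragments per extract library and 549 to 705 per control library, and for fewer if shorter transcripts were the source.

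WAS, the nucleation promoting factor, was low in both groups, and the groups overlapped. Its expression value was 0.91, 0.52, 1.00 and 0.51 in extract 1 to 4, against 0.75, 0.88, 1.06 and 0.83 in control 2 to 5. Extract 1 and 3 lay within the control range, and extract 2 and 4 lay below it. The means were 0.735 ± 0.257 with the extract and 0.880 ± 0.131 without it (SD, n = 4 each), and the log2(value + 1) difference of −0.13 ± 0.12 (SE) was less than the spread between libraries, with the opposite sign (0.14) after median centring. WAS has 7 annotated transcripts on chromosome X at 48676596 to 48691427 (plus strand). With the longest of them, 1849 bases, the values stood for at most 13 to 27 fragments per extract library and 20 to 32 per control library. The log2 fold change of WAS in the authors' deposited table was −1.01 with an adjusted p of 0.0341, while the ratio of the group means gave −0.26.

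ESPN, the bundling gene, was higher with the extract. Its expression value was 27.14, 26.17, 26.89 and 25.99 in extract 1 to 4, against 11.27, 9.65, 12.96 and 11.75 in control 2 to 5. The groups did not overlap, and the extract libraries lay closer together, with a coefficient of variation of 2.09% against 12.0% in the control libraries. The means were 26.5 ± 0.554 with the extract and 11.4 ± 1.37 without it (SD, n = 4 each), a 2.33-fold difference. On the log2(value + 1) scale this was 1.16 ± 0.08 (SE), or 1.42 after median centring. In the authors' deposited table the log2 fold change was 0.80, against 1.22 for the ratio of means.

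ESPN lies on chromosome 1 at 6424776 to 6461367 (plus strand) and has 18 annotated transcripts of 270 to 4731 bases. It overlaps TNFRSF25, a gene for a death receptor of lymphocytes on the opposite strand, in 383 of the 6952 exonic bases of ESPN. No source used here says whether strand was kept in the libraries, and reads from the shared stretch could belong to either gene. TNFRSF25 was also in the table, at 0.625 ± 0.311 with the extract and 0.223 ± 0.322 without it (SD, n = 4 each), far below ESPN on this scale. GENCODE 29 also names 1 pseudogene of ESPN, which was not in the table. The part of either in the ESPN values was not tested.

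MYLK, the light chain kinase gene, had nearly the same mean value in both groups. Its expression value was 0.39, 0.31, 0.49 and 0.63 in extract 1 to 4, against 0.53, 0.53, 0.26 and 0.51 in control 2 to 5. The groups overlapped, with extract 4 above every control library and control 4 below every extract library. The means were 0.455 ± 0.138 with the extract and 0.458 ± 0.132 without it (SD, n = 4 each), and the log2(value + 1) difference was 0.00 ± 0.10 (SE), or 0.26 after median centring. The log2 fold change of MYLK in the authors' deposited table was nevertheless 0.87, with an adjusted p of 0.00364. The MYLK gene, on chromosome 3 at 123610049 to 123884331 (minus strand), has 21 annotated transcripts of 220 to 10027 bases. From the longest, the values stood for at most 49 to 99 fragments per extract library and 48 to 87 per control library, and for far fewer from a short one such as those that begin near the inner start printed above.

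**Figure D1:**
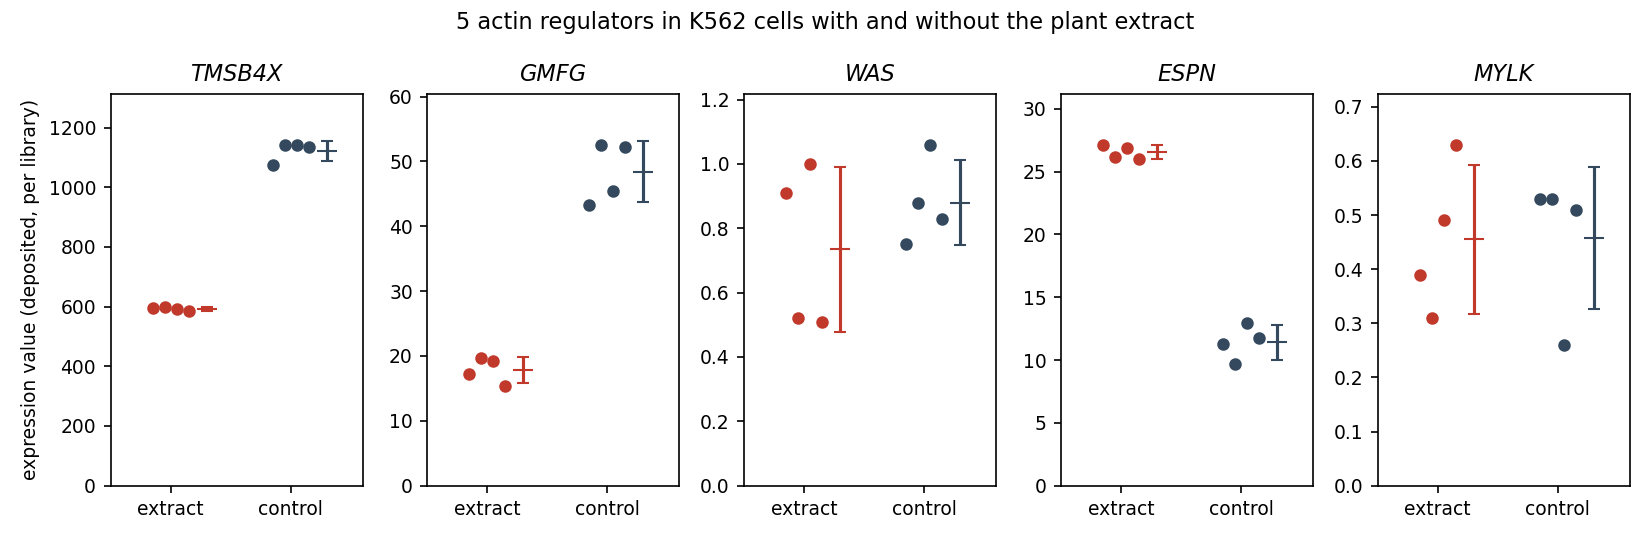
Deposited expression value (vertical axes, from 0, each gene with its own scale) of the 5 actin regulators in the 4 extract libraries (red) and the 4 control libraries (dark), with the mean and SD beside the points. TMSB4X (593 against 1122) and GMFG (17.9 against 48.4) are lower and ESPN (26.5 against 11.4) is higher with the extract without overlap, while WAS and MYLK overlap.

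Thus 3 of the 5 genes had groups without overlap, as did 41.9% of all listed genes. In the authors' deposited table all 5 had an adjusted p under 0.05, against 45.9% of all listed genes. Only TMSB4X, GMFG and ESPN passed the filter for limma, which asked that 4 or more libraries reach a value of 1, and of these 1 was called higher and 2 lower. With quantile normalization 1 was called lower, as the difference of TMSB4X went to 0.00 by construction, since the second highest gene of every library is given 1 value, and that of GMFG was −0.87. Among the 750 tested genes 26.8% were called higher and 56.0% lower (201 and 420 genes, or 228 and 241 after median centring), and since the genes were chosen on this contrast nothing is read from these counts. WAS reached 1 in 2 libraries and MYLK in none (0). In value per length the order with the extract was TMSB4X, ESPN, GMFG, WAS and MYLK, and without it TMSB4X, GMFG, ESPN, WAS and MYLK. GMFG and ESPN thus changed places, while the ranges of WAS and MYLK overlapped with the extract, at 0.51 to 1.00 and 0.31 to 0.63, and not without it, at 0.75 to 1.06 and 0.26 to 0.53.

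The authors' fold change and the values they deposited did not tell the same story for all 5 genes. For TMSB4X the log2 fold change in the authors' deposited table was −0.89 and the log2 ratio of group means −0.92, and for GMFG they were −1.38 and −1.44. For ESPN, WAS and MYLK they differed by 0.42, 0.75 and 0.88. Among 1539 listed genes with both group means above 0, 67 had a larger gap than MYLK, 80 a larger gap than WAS and 220 a larger gap than ESPN, while 1102 had a larger gap than TMSB4X. MYLK was also 1 of 12 genes for which the sign of the ratio of means was opposite to that in the authors' deposited table, and 1 of the 5 among these whose adjusted p there was under 0.05. No source used here names the tool behind the authors' fold change.

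**Figure D2:**
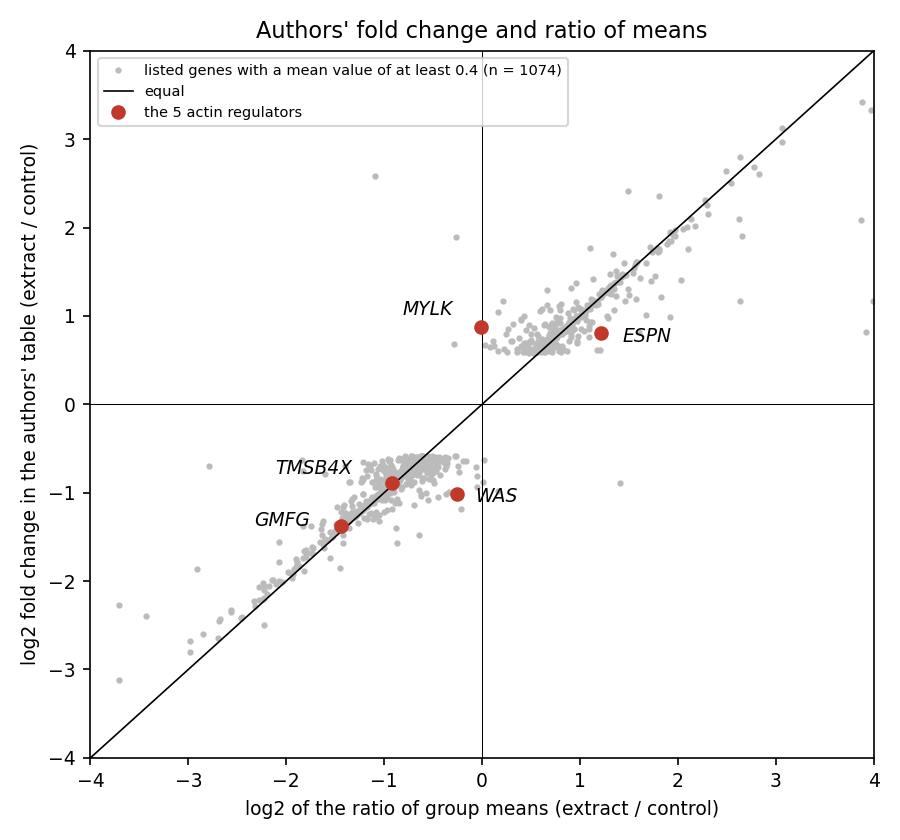
Log2 fold change in the authors' deposited table (vertical axis) against the log2 ratio of the group means of the deposited values (horizontal axis), extract over control, for 1074 listed genes with a mean value of at least 0.4 (grey, 5 of them outside the axes) and the 5 actin regulators (red). TMSB4X and GMFG lie on the line of equality, ESPN below it, WAS below it just left of 0, and MYLK above it at a ratio of means near 0.

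Gaps of this kind were more frequent in listed genes with many annotated transcripts. Among listed genes with a mean value of at least 0.4, the gap was over 0.3 on the log2 scale in 12 of 342 genes with 1 transcript (3.51%), in 79 of 516 genes with 2 to 9 (15.3%) and in 43 of 185 genes with 10 or more (23.2%). ESPN and MYLK, with 18 and 21 transcripts, are in the last class, and WAS, with 7, in the middle one. GMFG also has 12 transcripts and showed a gap of only 0.06. The classes were not split by expression level, and MYLK and WAS were low, with means of 0.46 and 0.81 over the 8 libraries. These counts are a description across genes. Whether the mix of transcripts differed between the groups, or the level between the classes, was not tested.

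**Figure D3:**
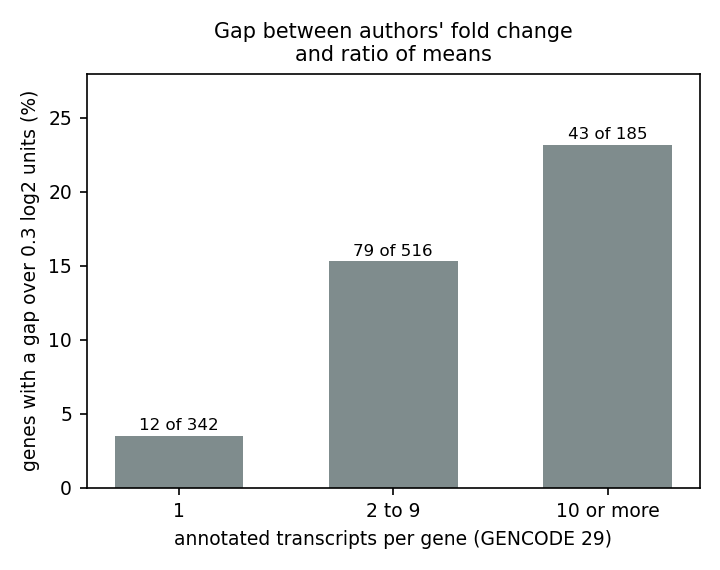
Percentage of listed genes (vertical axis, from 0) whose log2 fold change in the authors' deposited table differs by more than 0.3 from the log2 ratio of means, by the number of transcripts annotated per gene (horizontal axis), with the number of genes above each bar. The percentage is 3.51 for 1 transcript, 15.3 for 2 to 9 and 23.2 for 10 or more.

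Other genes of the actin machinery that were in the table were mostly lower with the extract, as were most listed genes. Of 262 further genes in 6 lists of the actin system 18 were in the table, 7 higher and 11 lower by the authors' fold change. Thus 61.1% of the 18 were lower, against 56.4% of all listed genes. Of the 18, 11 passed the filter. In limma, with Benjamini-Hochberg adjustment over the 750 tested genes, 2 of these 11 were called higher and 9 lower. Among all 750 tested genes 26.8% were called higher and 56.0% lower. The median log2 difference of the 11 was −0.58, against −0.50 for all tested genes. With the members included, 3 of 14 were called higher and 11 lower, against 3 and 10 after median centring and 3 and 8 after quantile normalization. The calls in this and the next 3 paragraphs are on genes that the authors had selected on these libraries and are not independent evidence of a difference.

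Of 62 genes for nucleation, branching and debranching 4 were in the table, WAS and GMFG among them, and the 3 that could be tested fell. WIPF1 codes for WIP, the partner that binds and stabilizes the WAS protein. Its value was 6.59, 6.90, 6.49 and 8.13 in extract 1 to 4, against 10.19, 11.56, 10.90 and 10.56 in control 2 to 5, without overlap (limma log2 difference −0.56, adjusted p = 0.000576). CORO1A, a coronin of white blood cells that acts on ARP2/3 networks, fell to 2.09 ± 0.582 with the extract, against 4.19 ± 0.461 without it (SD, n = 4 each; limma adjusted p = 0.00246). Of 43 genes for monomer binding, severing and capping 4 were listed, and of the 3 tested TMSB4X and GSN fell and TESK1 rose. GSN, the severing and capping protein gelsolin, was at 3.23 ± 0.349 with the extract and 5.45 ± 0.661 without it (SD, n = 4 each; limma adjusted p = 0.00133). TESK1, a kinase that inactivates cofilin, was at 7.03 ± 0.702 with the extract and 3.58 ± 0.357 without it (SD, n = 4 each; limma adjusted p = 0.00022). SSH3, of a family of cofilin phosphatases, was below the filter, at 1.09 ± 0.508 with the extract and 0.320 ± 0.205 without it (SD, n = 4 each).

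Of 57 genes for crosslinking, bundling and anchoring 8 were listed and 4 tested, and ESPN alone of these rose. ACTN2, an alpha-actinin of muscle, fell to 1.13 ± 0.179 with the extract, against 2.19 ± 0.205 without it (SD, n = 4 each; limma adjusted p = 0.00117). CNN1, the calponin of smooth muscle, fell to 2.48 ± 0.502 against 5.09 ± 0.648 in control cells (limma adjusted p = 0.000794). MARCKS, which anchors filaments at the membrane, was at 1.19 ± 0.246 and 1.83 ± 0.285 (limma adjusted p = 0.0212), and its call was lost without extract 4 (adjusted p = 0.0506), without control 2 (adjusted p = 0.0525) and with either scaling (adjusted p = 0.443 with median centring and 0.101 with quantile normalization). Of those below the filter, MYO3B, a myosin that carries espins to the tips of stereocilia, was at 0.275 ± 0.0444 with the extract and 0.470 ± 0.0860 without it. EPS8, a capping and bundling protein, was at 0.315 ± 0.154 and 0.530 ± 0.271 with overlap. ACTN3 and EPS8L3 stayed at or below 0.13 in every library.

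Of 40 genes for myosin II contraction 4 were listed, and PPP1R14A was the only one tested. It codes for an inhibitor of the myosin phosphatase and fell to 37.6 ± 4.04 with the extract, against 59.2 ± 3.65 without it (SD, n = 4 each; limma adjusted p = 0.000288), a call lost with quantile normalization (adjusted p = 0.73). MYLK2, the related kinase of skeletal muscle and the one family relative of the 5 genes listed among 15, was at 0.523 ± 0.156 with the extract and 0.180 ± 0.0712 without it, without overlap. DAPK2, another kinase that can phosphorylate myosin light chains, was at 0.898 ± 0.319 with the extract and 0.508 ± 0.208 without it, with overlap (SD, n = 4 each for both kinases). None of the 7 actin genes themselves were in the table (0 listed), and they were not analysed here.

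**Figure D4:**
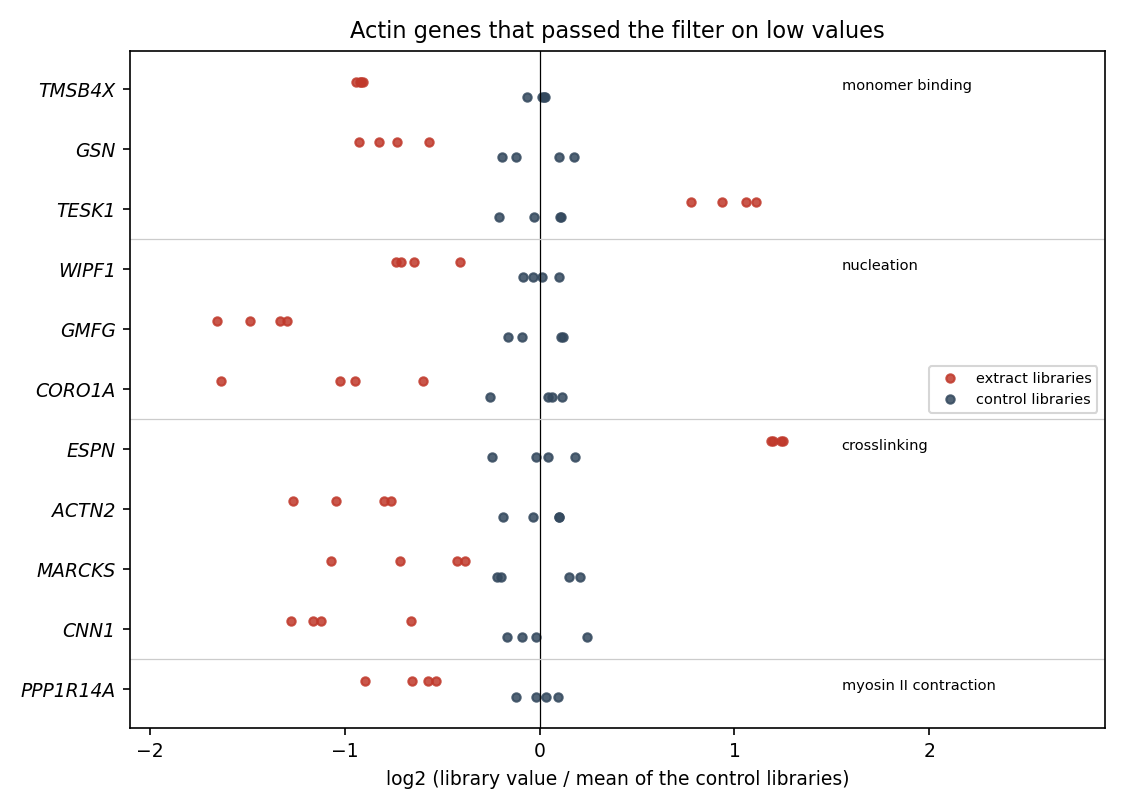
Log2 of each library's value over the mean of the control libraries (horizontal axis) for the 11 genes of 5 actin lists that passed the filter, grouped by role, with the 4 extract libraries in red and the 4 control libraries dark. TMSB4X, GMFG and ESPN are among them, so they are not the same 11 as the further genes counted in the text. The extract points of ESPN and TESK1 lie right of all their control points and those of the other 9 genes lie left of them.

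The genes whose values were most like those of the 3 tested regulators were then found. Likeness was measured as the root mean square difference of log2(value + 1) over the 8 libraries, each gene centred on its own mean, among 535 other named genes. Nearest to TMSB4X were SNHG19 (0.03), a host gene of small nucleolar RNAs, ANXA1 (0.04), annexin A1, and MYEOV (0.05), against a median of 0.31. SNHG19 was at 196 ± 5.75 with the extract and 373 ± 16.1 without it (SD, n = 4 each). Nearest to GMFG were ACSM3 (0.10), an acyl-CoA synthetase gene, C9orf135 (0.19) and PHLDA2 (0.20), against a median of 0.50, and TMSB4X stood at 0.26. Nearest to ESPN were MYC (0.13), IL10RA (0.13) and HSPA1B (0.14), against a median of 0.87. The measure includes the difference between the groups, on which all listed genes had been selected.

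Markers of blood lineages in the table differed between the groups as well. Of 16 erythroid markers 3 were listed, and their summed value was 4954 to 5308 in extract libraries and 2835 to 2921 in control libraries, nearly all of it HBZ, the zeta globin chain that K562 cells make. Of 18 megakaryocyte and platelet markers 4 were listed (GP1BB, ITGA2B, RASGRP2 and THBS1), with sums of 51.1 to 65.0 in extract libraries and 61.9 to 127.5 in control libraries. Most of each sum was GP1BB, at 49.76 ± 5.634 with the extract and 81.19 ± 27.25 without it (SD, n = 4 each), with overlap. ITGA2B and RASGRP2 were lower with the extract, without overlap. THBS1 had the higher mean with the extract, 1.12 ± 0.451 against 0.570 ± 0.208 in control libraries (SD, n = 4 each), with overlap. For monocytes and granulocytes 2 of 12 were listed (SPI1 and CD68), with sums of 18.9 to 22.7 in extract libraries and 31.9 to 33.3 in control libraries. For smooth muscle, a tissue known for MYLK, 1 of 10 was listed, CNN1, and for hair cells and brush borders, the sites known for ESPN, 1 of 12 was listed, CDHR5, at no more than 0.51 in any extract library and 0.15 in any control library. The other markers were not analysed here. The summed markers of monocytes and granulocytes were thus lower in the same libraries as TMSB4X, GMFG, WIPF1 and CORO1A, and their part in these differences was not tested.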

How the data were processed

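RNA was measured by sequencing in 8 K562 libraries. Per the labels' protocols, TRIzol was used for the RNA and an Illumina TruSeq kit for the libraries. HISAT2, StringTie and GRCh38 are named, with no version or role, per the submitters' processing notes. The authors deposited 1 expression value per gene and library, in a unit not given in the sources used here, with the fold change (a ratio), its log2, and the p-value and adjusted p-value, per the file headers. Fragments were estimated from the step described above and cover counting error only, so the depth of a whole library is unknown. All 1950 listed genes were read, and the 750 that reached a value of 1 in 4 or more libraries were fitted on log2(value + 1) with limma 3.58.1 (R 4.3.3; trend and robust settings on) and Benjamini-Hochberg adjustment at 0.05. The fit was also run on simulated data with normal noise and changes of random sign. Those data were not selected on the contrast as the listed genes were, so they do not give the share of false calls here. A log2 difference on this scale understates the change of low genes. P-values measure only the spread between libraries, which may be technical. The members, lists and tests were chosen with earlier results of these data known. The text names the members, the listed genes of each list (up to 6 per actin list and 4 per marker list, by mean value, with ACTN3 and EPS8L3 named beyond the rule to account for all of their list), the 3 genes nearest to each tested member, and TNFRSF25, chosen after its values were seen because it overlaps ESPN. The counts of 1 actin list, whose genes enter the totals over 6 lists, and of 1 marker list are not reported here. Alternatives were other pseudocounts, scalings and filters, leaving out each library, and a replicate block. No 2 libraries had identical values (0 of 28 pairs). Annotation came from GENCODE 29 (1866 of 1950 IDs matched) and start regions from RefSeq.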

Additional observations from a re-analysis of the deposited data

Results flagged for a closer look

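Of 70 groups of 4 libraries, from the genes of the lists, 5 had 1 library standing apart from its group, and about 3.5 would do so by chance. TMSB4X was lowest among control libraries in control 2, at 1072.78, with the others at 1133.12 to 1142.55. MYLK was lowest among control libraries in control 4, at 0.26, with the others at 0.51 to 0.53. VAV1 was highest among extract libraries in extract 1, at 6.56, with the others at 5.32 to 5.45, and CD3D in extract 2, at 22.87, with the others at 18.5 to 19.0. EPS8L3 was at 0.03 in control 2 and listed at 0 in the other control libraries.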

How the results depend on the processing

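Median centring gave log2 differences of −0.65 for TMSB4X, −1.12 for GMFG, 0.14 for WAS, 1.42 for ESPN and 0.26 for MYLK, and 241 genes called lower in limma against 420. The median it sets equal is that of genes selected on this contrast, so it is not a neutral scale. Quantile normalization gave 0.00 for TMSB4X, −0.87 for GMFG and 1.61 for ESPN, with 251 genes and 1 tested member called lower. It gives the second highest gene of every library 1 value, which is what TMSB4X is, and it could not be run for WAS and MYLK, which were below the filter. The authors' deposited table gave −1.01 for WAS, 0.80 for ESPN and 0.87 for MYLK, and the cause was not tested. Without a filter, over all 1950 genes, 314 genes were called higher and 567 lower, against 201 and 420 of the 750 tested with it. In the actin lists 5 rather than 3 were then called higher and 12 rather than 11 lower. Leaving out 1 library at a time, the differences ranged from −0.94 to −0.91 for TMSB4X, −1.44 to −1.32 for GMFG, −0.20 to −0.06 for WAS, 1.09 to 1.22 for ESPN and −0.07 to 0.05 for MYLK. With the number in the titles as a replicate block (3 pairs), 161 genes were called higher and 354 lower. Same-numbered libraries deviated together with correlations of 0.075, 0.075 and 0.149. Libraries with different numbers were not compared, so whether same-numbered libraries share more than a number was not tested. For 19 other tested genes of the lists, under 14 alternatives, 252 of 266 results kept their direction and call, 13 lost the call, and GP1BB turned to 0.0187 with quantile normalization. Low fragment numbers limit WAS and MYLK.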
